A study of Mus musculus with 13 samples.

Results

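The prostanoid genes examined here were 10 members grouped by their role. Earlier results of these data were known when they were chosen, so their counts and medians beside all genes are descriptions. The members were the cyclooxygenases Ptgs1 and Ptgs2, the prostaglandin E synthases Ptges, Ptges2 and Ptges3, and the prostaglandin D synthase Ptgds. Also included were the prostaglandin E2 receptors Ptger1, Ptger3 and Ptger4, and Hpgd, the dehydrogenase that breaks prostaglandins down. The members are 10 of the 49315 genes counted. All 10 passed the filter on low counts (at least 10 counts in at least 3 libraries), which kept 19360 genes. RNA-Seq was performed on whole midbrain of 13 male mice, 1 library per mouse. The study asked how RIPK3, a kinase of the necroptosis pathway, acts in astrocytes after MPTP, a toxin that kills dopaminergic neurons.

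Saline was given to 3 Cre- and 3 Cre+ mice, and MPTP to 3 Cre- and 4 Cre+ mice, which makes 4 groups. Cre- stands for the littermate controls (Ripk3fl/fl Aldh1l1Cre-) and Cre+ for the conditional knockouts (Ripk3fl/fl Aldh1l1Cre+). The Cre was a tamoxifen-inducible Aldh1l1-Cre/ERT2 transgene, so that deletion was limited to cells using that astrocyte promoter, and Ripk3 in other cells was left in place. Mice of all 4 groups, controls included, carried the floxed alleles and had received tamoxifen at 60 mg/kg for 5 days at least a week earlier. MPTP was given at 20 mg/kg once a day for 5 days, control mice received saline, and midbrains were taken 3 days after the last dose from mice 8 to 12 weeks old.

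Prostanoids are lipid mediators made from arachidonic acid, which phospholipases A2 release from membranes. Cyclooxygenases turn it into PGH2, and terminal synthases turn PGH2 into PGE2, PGD2, prostacyclin, thromboxane or PGF2alpha. Each product acts on its own G protein-coupled receptors, and PGE2 is taken up and oxidized by 15-hydroxyprostaglandin dehydrogenase (Hpgd). Ptgs1 is the form expressed in many resting cells and in brain is prominent in microglia, Ptgs2 is the form that inflammatory stimuli and neuronal activity induce, and Ptges is the inducible microsomal PGE2 synthase usually paired with Ptgs2. Ptgds is among the most abundant transcripts of brain, made by meningeal, choroid plexus and oligodendrocyte lineage cells.

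The sequences just upstream of the starts of both cyclooxygenases, of Ptges and of Hpgd are shown because Ptgs2, Ptges and Hpgd had the widest differences between groups, while Ptgs1 encodes an enzyme of the same reaction as Ptgs2. Each line gives the 250 bases before the RefSeq start (build GRCm38.p6), 5′ to 3′ on the strand of the gene, and capitals mark matches to any of 7 searched motifs.
Ptgs1: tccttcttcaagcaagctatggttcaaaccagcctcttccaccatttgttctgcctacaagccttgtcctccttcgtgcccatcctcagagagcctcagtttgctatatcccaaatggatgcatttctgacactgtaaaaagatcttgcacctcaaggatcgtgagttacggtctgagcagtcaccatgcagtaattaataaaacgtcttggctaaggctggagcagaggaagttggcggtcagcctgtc
Ptgs2: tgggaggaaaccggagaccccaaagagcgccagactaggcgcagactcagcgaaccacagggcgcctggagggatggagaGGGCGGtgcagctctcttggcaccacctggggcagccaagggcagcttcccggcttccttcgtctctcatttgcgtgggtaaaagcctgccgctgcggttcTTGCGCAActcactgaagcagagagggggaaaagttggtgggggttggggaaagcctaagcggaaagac
Ptges: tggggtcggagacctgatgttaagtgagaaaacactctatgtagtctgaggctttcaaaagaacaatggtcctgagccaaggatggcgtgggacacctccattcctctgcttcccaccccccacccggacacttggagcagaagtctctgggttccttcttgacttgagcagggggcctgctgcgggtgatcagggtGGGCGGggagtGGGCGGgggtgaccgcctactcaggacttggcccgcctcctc
Hpgd: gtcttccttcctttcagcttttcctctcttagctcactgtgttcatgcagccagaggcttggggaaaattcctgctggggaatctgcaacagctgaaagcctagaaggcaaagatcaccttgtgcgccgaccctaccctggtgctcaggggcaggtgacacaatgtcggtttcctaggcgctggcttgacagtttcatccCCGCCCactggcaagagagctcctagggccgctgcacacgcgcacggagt
These windows lie at chr2:36230176-36230425 (Ptgs1, + strand), chr1:150099781-150100030 (Ptgs2, + strand), chr2:30903298-30903547 (Ptges, - strand) and chr8:56294302-56294551 (Hpgd, + strand). The Ptges window lies inside the GENCODE M21 gene, which extends further upstream.

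Motifs were searched on both strands of 300 bases, 250 before and 50 after the start, in the 9 members with a RefSeq entry and in 32851 promoters. The motifs were NF-kappaB (GGGNNTTCC, held by 5.82% of all promoters), C/EBP (TTNNGCAA, 10.8%), a CRE core (CGTCA, 20.8%), an E-box (CACGTG, 7.15%), TATA (TATAA, 24.9%), a GC box (GGGCGG, 35.7%) and AP-1 (TGANTCA, 7.81%). Of the 9 members, Ptgs2 alone held the C/EBP letters, as TTGCGCAA beginning 69 bases before its start, and it also held a CGTCA at base 14 and an overlapping CACGTG at base 17 after the start. The Ptges window held a pair of GC boxes and no match to the other 6 motifs, and that of Ptgs1 held none of the 7. None of the 9 windows held the NF-kappaB letters, which says only that these letters are not in this window. Ptger1 was not matched.

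Library totals ranged from 11489150 to 29397278 counts, with a median of 24907639. The library Cre- MPTP 1 had the lowest total and the fewest detected genes, 21101 against 25432 to 27186 in the others. Its counts differed from those of Cre- MPTP 2 and 3 by a chi-square of 315 and 317 per degree of freedom. Between other libraries of the same group this was 6.80 to 42.6. Most log2 fold changes of members that rest on Cre- MPTP 1 are therefore given with and without it. The targeted gene Ripk3 was near the detection floor in all libraries, at 4 to 40 counts. Its CPM (counts scaled to the size of the library with TMM factors) was 0.159 to 0.402 in Cre- Saline, 0.228 to 0.394 in Cre+ Saline, 0.650 to 1.32 in Cre- MPTP and 0.224 to 0.702 in Cre+ MPTP. It did not pass the test between genotypes under Saline (log2 fold change 0.25 ± 0.54 SE, edgeR quasi-likelihood adjusted p = 1) or MPTP (-1.11 ± 0.45, edgeR adjusted p = 0.224), so these counts do not check the genotype labels. Astrocyte, neuron and dopaminergic neuron marker lists were detected in every group. The 8 dopaminergic neuron markers summed to 258.4 to 365.1 CPM in Cre- MPTP and 277.4 to 342.5 CPM in Cre- Saline. With MPTP in Cre-, 0 of these 8 were called lower, where 0.956% of all genes were, and 0 were called higher, where 2.23% were.

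Per kilobase of exon, the resting order of the members was dominated by Ptgds. In Cre- Saline the mean level was 872 ± 90.5 CPM per kb (SD, n = 3) for Ptgds and 43.2 ± 4.86 for Ptges3, a co-chaperone (p23) that also has PGE synthase activity. Ptges2, the second microsomal synthase, followed at 7.49 ± 0.326 CPM per kb. Hpgd (3.70 ± 1.12 CPM per kb) and Ptgs1 (3.56 ± 0.698) did not separate from each other, and both stood above Ptges at 1.45 ± 0.170. Ptger1 was at 0.729 ± 0.0580 CPM per kb, and Ptgs2 (0.484 ± 0.127), Ptger3 (0.418 ± 0.0900) and Ptger4 (0.410 ± 0.0373) overlapped at the bottom.

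The same order held in Cre+ Saline for the 3 most abundant members. In Cre- MPTP the lower part of the order was different. Ptgs2 stood at 9.30 ± 5.71 CPM per kb (n = 3), next to Hpgd at 9.45 ± 2.79, and above Ptgs1 at 3.09 ± 1.35. Ptges stood at 5.23 ± 0.722 CPM per kb, above Ptgs1 in each of the 3 libraries. In Cre+ MPTP (n = 4), Ptgs1 was again ahead, at 4.76 ± 0.592 CPM per kb, with Ptgs2 at 2.01 ± 1.72 and Ptges at 1.57 ± 0.390. The receptors remained the least abundant members in all groups on this scale, apart from Ptgs2 in Cre- Saline.

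**Figure D1:**
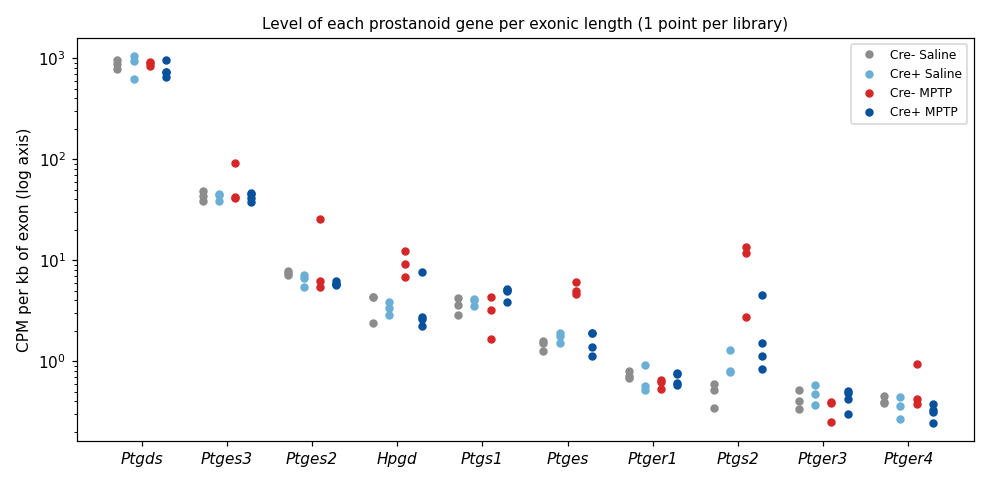
Level of each member in CPM per kb of exon on a log axis, 1 point per library, colored by group and ordered by the mean in Cre- Saline. Ptgds sat near 872 CPM per kb, and Ptgs2, Ptges and Hpgd were the members whose Cre- MPTP points lay above all Saline points.

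After MPTP, Cre- midbrains held more Ptgs2 and Ptges RNA than Cre- Saline midbrains. Of the 10 members, 2 rose and 0 fell (edgeR quasi-likelihood test over all 13 libraries, adjusted p under 0.05), where 2.23% of all 19360 genes tested rose and 0.956% fell (3.18% in either direction). The median log2 fold change was 0.45 over the members and 0.02 over all genes, and without Cre- MPTP 1 the median over the members was -0.009. As the members were chosen with earlier results of these data known, such counts and medians are descriptions. Ptgs2 differed by 19.3-fold and Ptges by 3.59-fold, and both calls held in all 14 alternative settings of this comparison.

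Ptgs2, the inducible cyclooxygenase (GRCm38 chr1:150100031-150108227, + strand), had the widest range. Cre- Saline mice had 2.38, 2.70 and 1.57 CPM, whereas Cre- MPTP 1, 2 and 3 had 12.7, 61.3 and 53.8 CPM. The groups did not overlap, and Cre- MPTP 1 was the lowest of its group, on 117 counts. The log2 fold change was 4.27 ± 0.71 (SE, edgeR adjusted p = 0.00509), and without Cre- MPTP 1 it was 4.70 ± 0.57 (edgeR adjusted p = 0.000202).

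Ptges, the inducible PGE2 synthase (chr2:30889471-30929863, - strand), had a tighter pattern. The Cre- Saline libraries read 4.96, 5.94 and 6.24 CPM, and the Cre- MPTP libraries 23.7, 18.3 and 19.7 CPM. Here Cre- MPTP 1 was the highest of its group, so that Ptgs2 and Ptges ranked the 3 libraries differently. The log2 fold change was 1.84 ± 0.23 (edgeR adjusted p = 0.00115), and 1.74 ± 0.21 without Cre- MPTP 1 (edgeR adjusted p = 0.000199).

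Hpgd (chr8:56294585-56321043, + strand), which oxidizes and inactivates PGE2, did not pass the test. Its CPM was 7.26, 7.34 and 4.05 in Cre- Saline and 15.4, 20.8 and 11.5 in Cre- MPTP. The groups did not overlap, as was the case for 7.11% of all genes with the MPTP group higher. Its log2 fold change of 1.36 ± 0.44 had an adjusted p of 0.16 in edgeR, 0.0348 in DESeq2 and 0.0135 in limma voom.

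**Figure D2:**
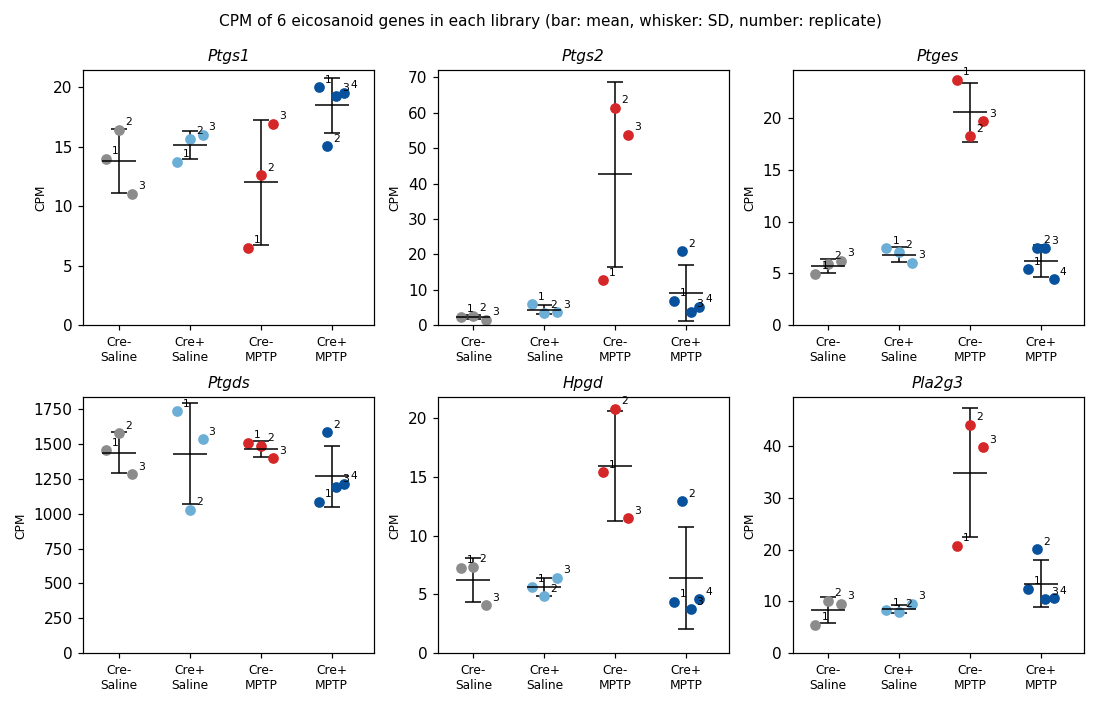
CPM (linear axes from 0) of Ptgs1, Ptgs2, Ptges, Ptgds, Hpgd and the phospholipase Pla2g3 in each of the 13 libraries, with the mean as a bar, the SD as a whisker and the replicate number beside each point. For Ptges the 3 Cre- MPTP libraries sat between 18.3 and 23.7 CPM, above all other libraries, and Cre+ MPTP 2 was the highest of its group for Ptgs2, Hpgd and Pla2g3.

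The other 7 members did not pass the test in this comparison. Ptgs1, the constitutive cyclooxygenase (chr2:36230426-36252272, + strand), had 14.0, 16.4 and 11.03 CPM in Cre- Saline and 6.50, 12.6 and 16.9 CPM in Cre- MPTP. The groups overlapped, with a log2 fold change of -0.19 ± 0.28 (edgeR adjusted p = 0.772) that turned to 0.10 without Cre- MPTP 1, the lowest of the 13 libraries. Ptgds (chr2:25466709-25470046, - strand) had 1454, 1578 and 1281 CPM in Cre- Saline and 1507, 1488 and 1397 CPM in Cre- MPTP, a log2 fold change of 0.03 ± 0.20 (edgeR adjusted p = 0.964).

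The constitutive PGE synthases were set by 1 library. Ptges2 (chr2:32395896-32405772, + strand) had 39.7, 37.4 and 36.5 CPM in Cre- Saline, and 130 CPM in Cre- MPTP 1 against 27.3 and 31.3 CPM in Cre- MPTP 2 and 3. Its log2 fold change of 0.72 ± 0.45 (edgeR adjusted p = 0.444) turned to -0.37 ± 0.12 without Cre- MPTP 1 (edgeR adjusted p = 0.0691). Ptges3 (chr10:128058954-128077272, + strand), of which the genome holds a pseudogene copy that can share reads, had 106, 96.3 and 84.8 CPM in Cre- Saline and 202, 94.7 and 92.0 CPM in Cre- MPTP 1, 2 and 3, and its log2 fold change of 0.43 ± 0.25 turned to -0.03 without that library.

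The receptors for PGE2 showed no called difference. Ptger4, a Gs-coupled receptor (chr15:5206661-5244187, - strand), had 2.54, 3.01 and 2.63 CPM in Cre- Saline, and 6.29, 2.495 and 2.84 CPM in Cre- MPTP, so that again only Cre- MPTP 1 was outside the Saline range on the high side. Without that library, the log2 fold change of 0.47 ± 0.34 turned to -0.03. Ptger3, a mainly Gi-coupled receptor (chr3:157566892-157645888, + strand), had 1.91, 2.30 and 2.92 CPM in Cre- Saline and 1.41, 2.26 and 2.18 CPM in Cre- MPTP. Its log2 fold change was -0.26 ± 0.29, and -0.097 without Cre- MPTP 1.

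Ptger1, which signals through calcium (chr8:83666678-83672753, + strand), had 3.73, 4.34 and 3.87 CPM in Cre- Saline and 3.36, 3.57 and 2.87 CPM in Cre- MPTP. The groups did not overlap, as for 8.02% of all genes with the MPTP group lower, and the log2 fold change was -0.29 ± 0.24 (edgeR adjusted p = 0.574). The strand setting of the counting is not given in the sources used here, so the Ptger1 value is uncertain. Genes on the opposite strand overlap 16.5% of the exonic length of Ptger4 and 3.81% of that of Ptgs1, where reads of both strands could be mixed.

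In Cre+ mice no member passed the test between MPTP and Saline. Of the 10 members 0 were called, and 0 of the 19360 genes tested (0% called) passed in edgeR, with 672 genes (3.47%) and 0 members at an unadjusted p under 0.05. DESeq2 and limma voom also called 0 members. Over all genes the number called depended on the method, and reached 294 in limma voom. The paper, which used DESeq2 and an FDR under 0.05, reported genes called in both directions for this comparison. Ptgs2 had 5.87, 3.58 and 3.66 CPM in Cre+ Saline and 6.91, 20.9, 3.86 and 5.19 CPM in Cre+ MPTP 1 to 4. Cre+ MPTP 2 stood far above the other 3, which lay within or just above the Saline range, and the log2 fold change was 1.07 ± 0.61 (edgeR adjusted p = 1).

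Ptges had 7.45, 7.04 and 6.02 CPM in Cre+ Saline and 5.40, 7.50, 7.45 and 4.43 CPM in Cre+ MPTP, overlapping groups with a log2 fold change of -0.15 ± 0.21. Hpgd had 5.64, 4.84 and 6.43 CPM in Cre+ Saline and 4.36, 12.9, 3.73 and 4.58 CPM in Cre+ MPTP, where again Cre+ MPTP 2 alone was high. Its log2 fold change of 0.17 ± 0.41 turned to -0.42 without that library. For the other 7 members the log2 fold changes lay between -0.18 (Ptger4) and 0.29 (Ptgs1).

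Under MPTP, Cre+ midbrains held less Ptges than Cre- midbrains. Of the 10 members, 1 fell and 0 rose in Cre+ against Cre-, where 1.03% of all genes fell and 0.517% rose (1.54% in either direction). Over the members the median log2 fold change was -0.65, against 0.03 over all genes, and without Cre- MPTP 1 it was -0.086. This comparison uses the same Cre- MPTP libraries as the comparison of MPTP with Saline in Cre-, so the values of both are side by side and not independent.

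Ptges was 3.32-fold lower in Cre+ MPTP, at 6.19 ± 1.53 CPM (SD, n = 4) against 20.6 ± 2.84 CPM (n = 3) in Cre- MPTP, with no overlap, as was the case for 5.07% of all genes with the Cre+ group lower. The log2 fold change was -1.73 ± 0.20 (edgeR adjusted p = 0.00563) and lay between -1.83 and -1.495 over 15 alternatives. The call was lost when only the MPTP groups were fitted (edgeR adjusted p = 0.2) and, with replicate number as a block, at an edgeR adjusted p of 0.0673.

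Ptgs2 was at 9.21 ± 7.87 CPM in Cre+ MPTP (n = 4) against 42.6 ± 26.2 CPM in Cre- MPTP (n = 3). The groups overlapped, since Cre+ MPTP 2 (20.9 CPM) lay above Cre- MPTP 1 (12.7 CPM). The log2 fold change of -2.23 ± 0.58 did not pass in edgeR (adjusted p = 0.0948) and passed in DESeq2 (adjusted p = 0.00468) and limma voom (adjusted p = 4.69e-06). Without Cre- MPTP 1 it was -2.67 ± 0.47 (edgeR adjusted p = 0.00663), and without Cre+ MPTP 2 it was -3.01 ± 0.51 (edgeR adjusted p = 0.0113). Of the 7 fits with 1 library left out, only these 2 passed, and the edgeR adjusted p reached 0.251.

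Hpgd had a log2 fold change of -1.32 ± 0.40 (edgeR adjusted p = 0.155), and of -1.90 ± 0.28 without Cre+ MPTP 2 (edgeR adjusted p = 0.00529). For Hpgd this was the only 1 of 7 fits with 1 library left out that passed, and the edgeR adjusted p reached 0.339. Ptgs1 lay the other way, at 20.0, 15.1, 19.3 and 19.5 CPM in Cre+ MPTP 1 to 4, with a log2 fold change of 0.61 ± 0.26 that did not pass (edgeR adjusted p = 0.242). Ptges2 (29.8, 28.6, 31.8 and 29.7 CPM in Cre+ MPTP) had a log2 fold change of -1.06 ± 0.41 (edgeR adjusted p = 0.212), which turned to 0.03 without Cre- MPTP 1 and was -1.40 ± 0.36 without Cre- MPTP 2 (edgeR adjusted p = 0.0394).

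Ptges3 had 100.2, 103, 84.4 and 91.1 CPM and Ptger4 2.51, 1.62, 2.09 and 2.18 CPM in Cre+ MPTP. Their log2 fold changes of -0.45 ± 0.24 and -0.84 ± 0.32 did not pass. Without Cre- MPTP 1 they were 0.017 ± 0.11, with the sign turned, and -0.34 ± 0.24. The Cre+ MPTP libraries 1 to 4 had 4.07, 3.19, 4.13 and 3.32 CPM of Ptger1 (log2 fold change 0.17 ± 0.23). For Ptger3 they had 2.77, 2.91, 2.40 and 1.72 CPM (0.30 ± 0.28), and for Ptgds 1084, 1584, 1193 and 1215 CPM (-0.21 ± 0.18).

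**Figure D3:**
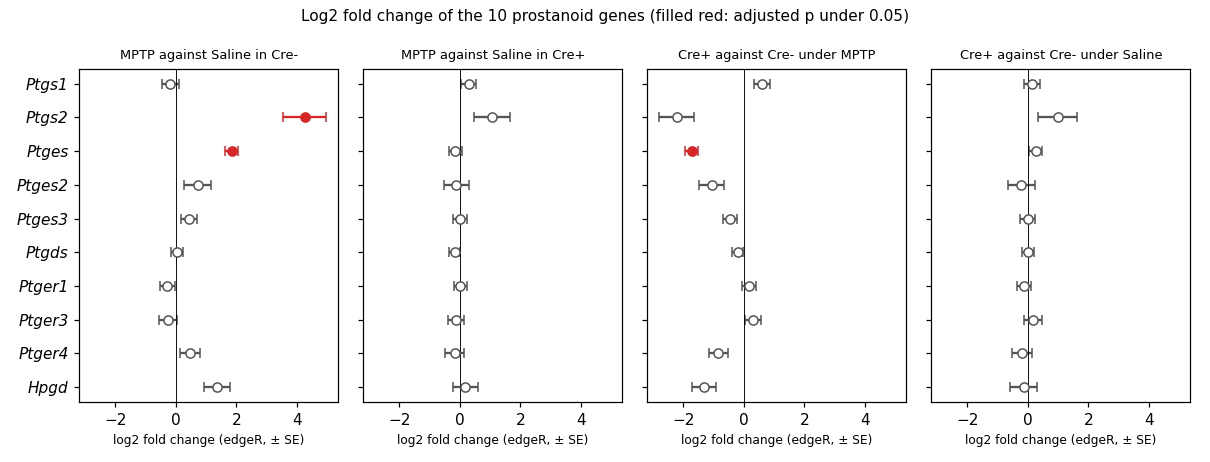
Log2 fold changes of the 10 members with their SE in 4 comparisons (edgeR), filled red where the adjusted p was under 0.05. Ptgs2 and Ptges were called for MPTP in Cre-, Ptges for Cre+ against Cre- under MPTP, and no member in the panels for MPTP in Cre+ and for genotype under Saline.

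The MPTP effect of Cre+ minus that of Cre- (the interaction) was -1.99 ± 0.30 on the log2 scale for Ptges (edgeR adjusted p = 0.108) and -3.21 ± 0.88 for Ptgs2 (edgeR adjusted p = 0.316). No member was called, where 0.0103% of all genes were, and 2 members, these, had an unadjusted p under 0.05 against 5.76% of genes. Both passed in DESeq2 (adjusted p = 1.64e-06 for Ptges and 0.0184 for Ptgs2) and in limma voom (adjusted p = 0.000172 and 0.000438). Without Cre- MPTP 1 the edgeR adjusted p was 0.0125 for Ptges and 0.0304 for Ptgs2, and without Cre+ MPTP 2 it was 0.0155 and 0.0466. Of the 13 fits with 1 library left out, only these 2 passed for either gene. Over the 13, the edgeR adjusted p reached 0.389 for Ptges and 0.731 for Ptgs2.

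Between genotypes under Saline, 0 members were called, as were 0 of all genes (0% called), with 176 genes (0.909%) and 0 members at an unadjusted p under 0.05 in edgeR, and 0 members in DESeq2 and limma voom. Ptgs2 was higher in each Cre+ Saline library (3.58 to 5.87 CPM) than in any Cre- Saline library (1.57 to 2.70 CPM). A log2 fold change of 0.98 ± 0.66 had an edgeR adjusted p of 1, and 11.6% of all genes had groups that did not overlap in this comparison. Ptges2 did not overlap either, at 27.2, 36.4 and 33.7 CPM in Cre+ Saline, below Cre- Saline (log2 fold change -0.22 ± 0.45). The Cre+ Saline libraries 1 to 3 had 13.8, 15.7 and 16.0 CPM of Ptgs1, 98.0, 86.4 and 100.6 CPM of Ptges3, and 1733, 1026 and 1533 CPM of Ptgds. The receptors there were at 3.11, 4.96 and 2.82 CPM (Ptger1), 2.68, 2.08 and 3.27 CPM (Ptger3) and 2.96, 2.40 and 1.79 CPM (Ptger4), all overlapping Cre- Saline.

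The balance of the 2 cyclooxygenase transcripts was described as the share of Ptgs2 in their summed CPM per kb. In Cre- Saline this share was 12.6%, 12.2% and 10.8%, and in Cre+ Saline it was 26.6%, 16.2% and 16.2%. It was 62.3%, 80.5% and 72.9% in Cre- MPTP, where Ptgs2 was the more abundant transcript in each library. In Cre+ MPTP it was 22.7%, 54.0%, 14.5% and 18.4%, with Cre+ MPTP 2 the only library above one to one. The share of Ptges in the 3 PGE synthases was 2.82 ± 0.585% in Cre- Saline, 3.43 ± 0.492% in Cre+ Saline, 7.74 ± 2.48% in Cre- MPTP and 3.15 ± 0.812% in Cre+ MPTP. In Cre- MPTP 1 this share was 4.91%, against 8.80% and 9.51% in Cre- MPTP 2 and 3. Ptges3 held most of the rest in all 4 groups.

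**Figure D4:**
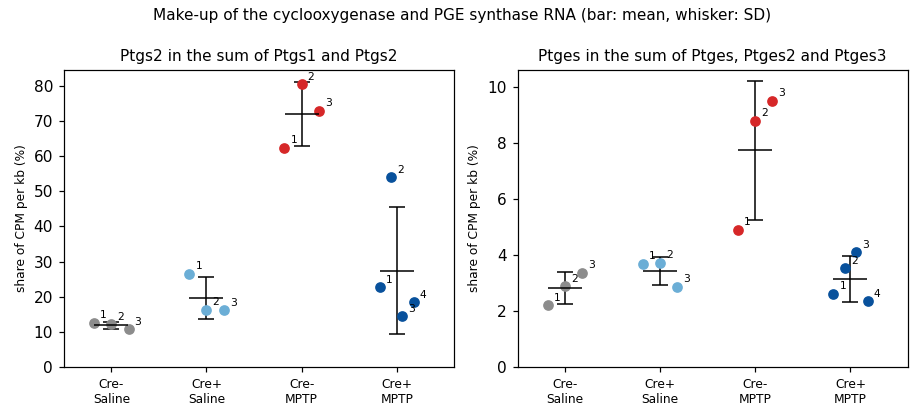
Share (%) of Ptgs2 in the summed CPM per kb of both cyclooxygenases, and of Ptges in that of the 3 PGE synthases, per library with mean and SD. Ptgs2 made up 62.3% to 80.5% in Cre- MPTP and 10.8% to 12.6% in Cre- Saline.

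Markers of other cells also differed between the groups. The summed CPM of 6 neutrophil markers (among them S100a8, S100a9 and Ly6g) was 0.119 to 0.876 in Cre- Saline, 0.325 to 1.90 in Cre+ Saline, 8.99 to 58.0 in Cre- MPTP and 0.572 to 3.19 in Cre+ MPTP. The 4 neutrophil markers that could be tested were all called higher with MPTP in Cre-, where 2.23% of all genes were. All 4 were called lower in Cre+ MPTP than in Cre- MPTP, where 1.03% of all genes were. With sums this low in the other groups, they could pass the count filter mainly through Cre- MPTP. These counts of calls are therefore no independent support. The highest of the Cre+ MPTP sums was in Cre+ MPTP 2, the library that was also highest of its group for Ptgs2 and Hpgd. For Ptges this library (7.50 CPM) was level with Cre+ MPTP 3 (7.45 CPM). In Cre- MPTP the highest sum was in replicate 3, whereas Ptgs2 was highest in replicate 2 and Ptges in replicate 1. In Cre+ Saline 1 of the 6 neutrophil markers was at 0 in every library, and in the other groups none was.

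The 8 microglia markers summed to 171 to 232 CPM in Cre- MPTP against 245 to 318 CPM in the other groups. Of the 8, 3 were called lower with MPTP in Cre- (0.956% of all genes were). In Cre+ against Cre- under MPTP, 3 were called higher (0.517% of all genes were). Oligodendrocyte markers summed to 9414 to 12070 CPM in Cre- MPTP and 12750 to 17550 CPM in Cre- Saline, with 3 of 8 called lower. Their sums were also lower with MPTP in Cre+, at 11340 to 14700 CPM against 15370 to 17230 CPM in Cre+ Saline, with 0 called. Pericyte markers summed to 114 to 231 CPM in Cre- MPTP and 292 to 320 CPM in Cre- Saline, with 1 of 6 called lower. The 114 CPM was that of Cre- MPTP 1, and Cre- MPTP 2 and 3 had 231 and 196 CPM. Endothelial markers summed to 254 to 440 CPM in Cre- MPTP and 260 to 289 CPM in Cre- Saline, with 0 of 8 called, and the 440 CPM was that of Cre- MPTP 1. This library also stood apart from the other 12 for astrocyte markers (2164 against 3421 to 4150 CPM), neuron markers (2869 against 3921 to 4961 CPM) and ependymal markers (92.9 against 25.7 to 44.3 CPM). Their part in the prostanoid results was not tested, and in bulk tissue fewer cells of a type cannot be told apart from less RNA per cell.

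The rest of the eicosanoid pathway, 51 genes for arachidonic acid release, other synthases, receptors, the lipoxygenase arm, transport and breakdown, had few calls. Of 47 tested, 2 rose and 1 fell with MPTP in Cre-, beside 2.23% and 0.956% of all genes. Under MPTP, Cre+ midbrains held more of 1 and less of 1 than Cre- midbrains, beside 0.517% and 1.03% of all genes, and 0 were called in the 3 remaining comparisons. The median log2 fold change was -0.11 with MPTP in Cre- (0.02 over all genes) and 0.08 in Cre+ against Cre- under MPTP (0.03 over all genes).

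Pla2g3, a secreted phospholipase A2 that can release arachidonic acid, was likewise highest in Cre- MPTP. It had 5.48, 10.1 and 9.57 CPM in Cre- Saline, 8.24, 8.01 and 9.48 in Cre+ Saline, 20.7, 44.1 and 39.8 in Cre- MPTP, and 12.5, 20.1, 10.4 and 10.6 CPM in Cre+ MPTP. Its log2 fold change was 2.06 ± 0.34 with MPTP in Cre- (edgeR adjusted p = 0.00472) and -1.39 ± 0.30 in Cre+ against Cre- under MPTP (edgeR adjusted p = 0.0427). The second call was lost in 6 of 15 alternatives, among them those without Cre- MPTP 3, Cre+ MPTP 1, Cre+ MPTP 3 or Cre+ MPTP 4, with adjusted p up to 0.298.

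Ltc4s, the leukotriene C4 synthase of the lipoxygenase arm, went the other way. It had 27 to 62 counts in Cre- Saline and 6, 4 and 10 counts in Cre- MPTP, and 26.1% of its exonic length overlaps a gene on the opposite strand. In CPM it had 2.46, 1.05 and 1.64 in Cre- Saline, 0.650, 0.158 and 0.330 in Cre- MPTP, and 1.40, 1.85, 1.07 and 1.49 in Cre+ MPTP. Its log2 fold change was -2.34 ± 0.48 with MPTP in Cre- (edgeR adjusted p = 0.0168) and 2.09 ± 0.46 in Cre+ against Cre- under MPTP (edgeR adjusted p = 0.0437). The second call held in 7 of 15 alternatives and the first in 10 of 14. It was lost for MPTP in Cre- without Cre- MPTP 2, Cre- MPTP 3 or Cre- Saline 1, and for genotype without Cre- MPTP 3 or any 1 of the 4 Cre+ MPTP libraries.

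Ptgfrn, which binds and restrains the PGF2alpha receptor, rose with MPTP in Cre- by 0.57 ± 0.12 on the log2 scale (edgeR adjusted p = 0.0231), from 34.1, 39.3 and 41.6 CPM to 60.2, 58.3 and 52.4 CPM. This call held in 8 of 14 alternatives and was lost in the others, among them those without Cre- MPTP 2, Cre- Saline 1 or Cre- Saline 2, with adjusted p up to 0.53. In Cre+ against Cre- under MPTP it was at -0.30 ± 0.11 (edgeR adjusted p = 0.206). Hpgds, the hematopoietic prostaglandin D synthase found in microglia, had 7.14, 6.41 and 6.24 CPM in Cre- Saline and 1.73, 3.33 and 4.59 CPM in Cre- MPTP. It did not overlap between these groups and had a log2 fold change of -0.998 ± 0.28 that missed the threshold (edgeR adjusted p = 0.0905), and it passed in DESeq2 and limma voom.

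The remaining classical synthases and receptors did not pass. The log2 fold change with MPTP in Cre- was -0.76 ± 0.38 for the thromboxane synthase Tbxas1, -0.04 ± 0.27 for the prostacyclin synthase Ptgis, and 0.35 ± 0.28 for the prostaglandin transporter Slco2a1. Among the receptors it was -0.41 ± 0.33 for Ptger2, -0.70 ± 0.61 for Ptgdr, -1.14 ± 0.42 for Ptgfr, 1.65 ± 0.88 for Ptgir and -0.09 ± 0.38 for Tbxa2r. Of these 8, Ptgfr (lower) and Ptgir (higher) did not overlap between Cre- Saline and Cre- MPTP, where 8.02% of all genes were lower and 7.11% higher without overlap.

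Across the 13 libraries the genes most like each member were listed by Pearson's r of log2 CPM, as a description of points that share libraries and groups. Ptgs2 was closest to Itprid2 (r = 0.973), the kinase Sgk3 (0.972) and Ctla2a (0.971). Ptges was closest to the heme oxygenase Hmox1 (r = 0.97), the protein kinase Prkcd (0.957) and the calpain Capn2 (0.953). Ptgs1 was closest to the complement gene Hc (r = 0.959), BC035947 (0.954) and the microglial chemokine receptor Cx3cr1 (0.949). Ptgs1 was lowest in Cre- MPTP 1 (6.50 CPM), and no r was taken without that library. Ptgds had weaker neighbors, Mpzl2 (r = 0.824), Slc22a2 (0.823) and Gm45112 (0.815). Among the members themselves, r was 0.767 for Ptgs2 with Ptges, 0.79 for Ptgs2 with Hpgd and -0.114 for Ptgs2 with Ptgs1. The highest pair was Ptges2 with Ptges3 (r = 0.89), which both peaked in Cre- MPTP 1.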

How the data were processed

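Total RNA from whole midbrain was sequenced on libraries made with a stranded total RNA kit. The authors used Trimmomatic 0.36 for trimming, STAR 2.5.2b for mapping to GRCm38, and counted unique gene hits with featureCounts of Subread 1.5.2; they tested with DESeq2. The deposited values are raw counts per gene, whole numbers without normalization, for 49315 gene IDs, of which 48970 were matched to symbols. Totals of 11489150 to 29397278 counts limit precision for genes with few counts.

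Counts were grouped by labelled genotype and treatment. edgeR 4.0.16 (R 4.3.3) was used with TMM, genes with 10 or more counts in 3 or more libraries, 1 term per group over 13 libraries, quasi-likelihood tests and Benjamini-Hochberg adjustment per comparison, called at an adjusted p under 0.05. SE is the absolute log2 fold change over the square root of F. CPM per kb divides by GENCODE M21 exonic length. Promoters are from RefSeq (GRCm38.p6), with 9 of 10 members matched. Alternatives were DESeq2 1.42.0, limma 3.58.1 voom with sample quality weights, other filters and size factors, 2-group fits, a replicate block, and libraries left out. The fits were tested on simulated data. Named genes were all 10 members and Ripk3, the other eicosanoid genes called in any comparison, 9 further classical prostanoid genes, and the 3 genes most correlated with Ptgs1, Ptgs2, Ptges and Ptgds. The members and lists were chosen with earlier results of these data known. P-values measure the spread between mice, each 1 library.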

Additional observations from a re-analysis of the deposited data

Results flagged for a closer look

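In the Cre+ MPTP group of 4, a single library lay apart for 3 of the eicosanoid genes named in the report, by the gap to its nearest neighbor divided by the range of the group, which was above the Dixon critical value for 4 samples. For Ptgs1 the gap was 0.859 of the range, with Cre+ MPTP 2 low at 15.1 CPM against 19.3 to 20.0 CPM in the other 3. For Hpgd it was 0.907, with the same library high at 12.9 CPM against 3.73 to 4.58 CPM. For the thromboxane receptor Tbxa2r it was 0.938, with Cre+ MPTP 4 high at 1.30 CPM against 0.813 to 0.843 CPM. Chance flags about 1 in 20 groups. The share of all genes flagged by this rule is not given here, so the 3 flags cannot be set against it. The causes were not tested.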

How the results depend on the processing

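The calls of Ptgs2 and Ptges for MPTP in Cre- held in all 14 alternatives, with log2 fold changes that kept their direction. Fewer or more calls came from the following settings, and the causes were not tested. Members lower in Cre+ than Cre- under MPTP (1 as reported) numbered 3 in DESeq2, 3 in limma voom, 2 without a filter beyond 1 count, 2 with Cre- MPTP 1 and Cre+ MPTP 4 left out together, 0 when only the 2 groups were fitted, and 1 to 3 with 1 library left out. Members with a lower interaction (0 as reported) numbered 2 in DESeq2, 2 in limma voom, 1 without the filter, 2 with both libraries out, and 0 to 2 with 1 library out. Of the other eicosanoid genes, those higher with MPTP in Cre- (2) numbered 0 with 2 groups fitted, 1 without the filter and 1 to 2 with 1 library out, and those lower (1) numbered 3 in DESeq2, 3 in limma voom, 0 with 2 groups, 2 with both libraries out and 0 to 2 with 1 library out. In Cre+ against Cre- under MPTP, those higher (1) numbered 3 in DESeq2, 4 in limma voom, 0 with 2 groups, 0 with DESeq2 size factors and 0 to 2 with 1 library out, and those lower (1) numbered 3 in limma voom, 0 with 2 groups and 0 to 4 with 1 library out. For the interaction, limma voom called 1 higher and 1 lower, leaving both libraries out 1 lower, and leaving 1 library out 0 to 1 lower. Over all genes the counts ranged from 110 to 2624 (616 as reported) for MPTP in Cre-, from 0 to 294 (0) in Cre+, from 0 to 1826 (299) for genotype under MPTP, from 0 to 6 (0) under Saline and from 0 to 689 (2) for the interaction.

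With replicate number as a block, members called for MPTP in Cre- stayed at 2, and members lower in Cre+ under MPTP fell to 0. Among the other eicosanoid genes the block gave 1 higher with MPTP in Cre-, and 0 higher and 0 lower in Cre+ against Cre- under MPTP. The labels do not say whether mice of the same number are paired. Deviations of same-numbered libraries had r from -0.179 to 0.184, with 3 of 18 pairs over 0.1. No differently numbered pairs were set beside them, so these values cannot decide it.

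A change of sign was seen in 55 of 852 alternative values of single genes, none past the threshold and none over 0.419 on the log2 scale. For MPTP in Cre-, the signs turned in limma voom for Ptges2 (-0.319), Ptges3 (-0.02), Ptgds (-0.078) and Ptger4 (-0.09), and with both libraries out for Ptgs1 (0.115), Ptges2 (-0.355), Ptges3 (-0.023) and Ptger4 (-0.015). With 1 library out the ranges were -0.512 to 0.103 for Ptgs1, -0.366 to 1.06 for Ptges2, -0.034 to 0.627 for Ptges3, -0.056 to 0.086 for Ptgds and -0.026 to 0.694 for Ptger4. For MPTP in Cre+ they turned in limma voom for Hpgd (-0.22), with the block for Ptges3 (0.008) and Ptger3 (0.025), with 10 counts in 7 libraries for Ptges3 (0.001), and with both libraries out for Ptges3 (0.02) and Ptger3 (0.012). With 1 library out the ranges were -0.07 to 0.049 for Ptges3, -0.139 to 0.31 for Ptger1, -0.286 to 0.037 for Ptger3 and -0.419 to 0.362 for Hpgd. For genotype under MPTP they turned for Ptges2 and Ptges3 in limma voom (0.002 and 0.018) and with both libraries out (0.032 and 0.034), and with 1 library out the ranges were -1.399 to 0.027 for Ptges2 and -0.637 to 0.017 for Ptges3. For genotype under Saline, Ptges3 turned in limma voom (0.006) and with the block (0.001), and with 1 library out the ranges were -0.088 to 0.069 for Ptges3, -0.159 to 0.184 for Ptgds and -0.423 to 0.026 for Ptger1. For the interaction they turned in limma voom for Ptges2 (0.215), Ptges3 (0.012), Ptger3 (-0.019) and Ptger4 (0.065), and with both libraries out for Ptges2 (0.253) and Ptges3 (0.043). With 1 library out the ranges were -1.18 to 0.254 for Ptges2, -0.628 to 0.032 for Ptges3 and -0.051 to 0.301 for Ptger3. Leaving out a library leaves groups of 2 or 3, whose spread is shared with the other groups in these fits.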
